A study of Mus musculus with 6 samples.

Results

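Basement membrane genes were measured in pressure-loaded hearts of mice with and without miR-27b. The genes were the 10 whose Entrez Gene IDs map to the symbols Lama2, Lama4, Lama5, Lamb1, Lamb2, Lamc1, Nid1, Nid2, Hspg2 and Agrn, out of 17570 IDs with a value in every heart. They were listed by what they encode, with earlier results of these data already known. All 10 were tested, since each averaged more than the limit of 0.5 FPKM (fragments per kilobase of transcript, scaled to the mapped fragments of the library). KO/TAC hearts (n = 3) came from miR-27b-null mice, and WT/TAC hearts (n = 3) from wild-type mice. Both groups were C57Bl/6J mice, described as 10 to 12 weeks old at surgery and, in another place, as 8-week-old, and both had transverse aortic constriction (TAC), a band around the aorta that raises the pressure load on the left ventricle, for 8 weeks before the heart was taken. The null allele is a 10-bp deletion within the mature 3p sequence of miR-27b, made by TALEN injection into C57BL/6 eggs, so the allele is carried by every cell of the body and not by 1 cell type of the heart. The labels do not say which part of the heart was taken, and no heart without TAC was analysed here, so every value belongs to a loaded heart. Nothing in the labels says whether the replicate numbers stand for separate animals, and the p-values measure the spread between these 6 samples.

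The basement membrane is a thin sheet of matrix that wraps each cardiomyocyte and underlies the endothelium of every vessel. Laminins are trimers of an α, a β and a γ chain that assemble into a network at the cell surface, where integrins and dystroglycan hold them. Nidogens link this network to collagen IV, and the heparan sulfate proteoglycans perlecan and agrin bind laminin, dystroglycan and growth factors. In mouse and human, loss of the laminin α2 chain causes a congenital muscular dystrophy, which is the best known role of this layer in striated muscle.

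The miRNA and its candidate pairing sites are shown because they are what distinguishes the groups. The mature sequences come from RefSeq (GRCm38.p6), with the seed, bases 2 to 8, in capitals. miR-27b-3p lies at chr13:63300760-63300780 on the plus strand, and its paralog miR-27a-3p, which has the same seed, lies at chr8:84208727-84208747 on the plus strand. Targeting was described as that of miR-27b, but with chromosome 8, where RefSeq has miR-27a, as its place.
miR-27b-3p: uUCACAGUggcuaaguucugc
miR-27a-3p: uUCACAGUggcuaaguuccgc
The letters that pair with this seed, ACTGTGA, were searched for on the mRNA strand of GENCODE M21 transcripts (GRCm38), taking the longest annotated 3′ UTR per gene. They occurred in 2 of the 10 basement membrane genes, Lamc1 and Agrn, and in 17.3% of the 12167 tested genes with a 3′ UTR searched. The sites are printed with the flanking bases on the mRNA strand, with the pairing letters in capitals.
Lamc1 site: taagaccacACTGTGAcagttccct
Agrn site: tgtgacaatACTGTGAtatcaaaaa
The Lamc1 site lies at chr1:153220198-153220204 on the minus strand, at base 1269 of a 3′ UTR of 2551 bases. The Agrn site lies at chr4:156165966-156165972 on the minus strand, at base 524 of 1206. The 3′ UTRs of Lama2, Lama4, Lama5, Lamb1 and Lamb2 are short, 110 to 210 bases, while Nid1 has 2202 bases without the letters. A match of letters is no evidence of pairing in the heart.

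The libraries were similar in scale, with FPKM sums of 519562 to 553716 and 22.0% to 26.8% of the sum in the 20 most abundant genes. The depth, estimated from the spacing of the lowest values, was 12.9 to 13.2 in KO/TAC and 15.1 to 15.8 in WT/TAC in units of 1000000 fragments. The estimate is rough because only 55.3% to 66.0% of those values lay within 0.2 of a step. Chance gives 40% at a depth fixed beforehand and more here, where the best fitting depth was taken, so the depth is not well established. At that depth each basement membrane gene rests on roughly 280 to 14220 fragments a heart, for a counting error of up to 1.15% to 6.02% by gene. The hearts differed in their chamber markers. WT/TAC replicate 1 had 8140 FPKM of Myl7, the atrial myosin light chain, and 81.0 FPKM of Myl2, the ventricular one, while every other heart had at least 9735 FPKM of Myl2. Myl7 stood at 0.25, 333 and 0.66 FPKM in KO/TAC hearts, against 8140, 0.23 and 1135 FPKM in WT/TAC hearts. Fold changes and shares of the 10 genes that moved by over 1.5 times without WT/TAC replicate 1 are therefore given with and without it. The labels give heart as the tissue, although their extraction text names granulosa cells, and cardiomyocyte markers summed to 31400 to 32400 FPKM in KO/TAC and 25700 to 28900 FPKM in WT/TAC.

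Of the basement membrane genes, 1 fell in KO/TAC hearts, 0 rose, and none passed an adjusted threshold. Lamc1, the laminin γ1 chain, was the gene that fell, at an unadjusted p under 0.05 and a fold of at least 1.2, limits taken from the p threshold the study states and from the folds its gene list holds. Over all 12520 genes tested, 6.14% were lower by the same rule and 4.94% were higher, so 1 of 10 lower and 0 of 10 higher is close to the share of all genes. At an adjusted p under 0.05 (limma, Benjamini-Hochberg) the count was 0 of 10, with adjusted p between 0.396 and 0.994, against 0.016% of all genes. Without logarithms, a gene-by-gene 2-sample test also had 1 of 10 at an unadjusted p under 0.05, and with them it had 0. The fold change was negative for 8 of the 10 and for 50.8% of all genes tested, and its median was -0.18 on the log2 scale, against 0.00 for all genes tested. Without WT/TAC replicate 1, Lamc1 and Nid1 were lower, 2 of 10 against 7.49% of all genes, and 0 were higher. In bulk RNA, fewer cells of a type and less RNA per cell cannot be told apart in any of these values.

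**Figure D1:**
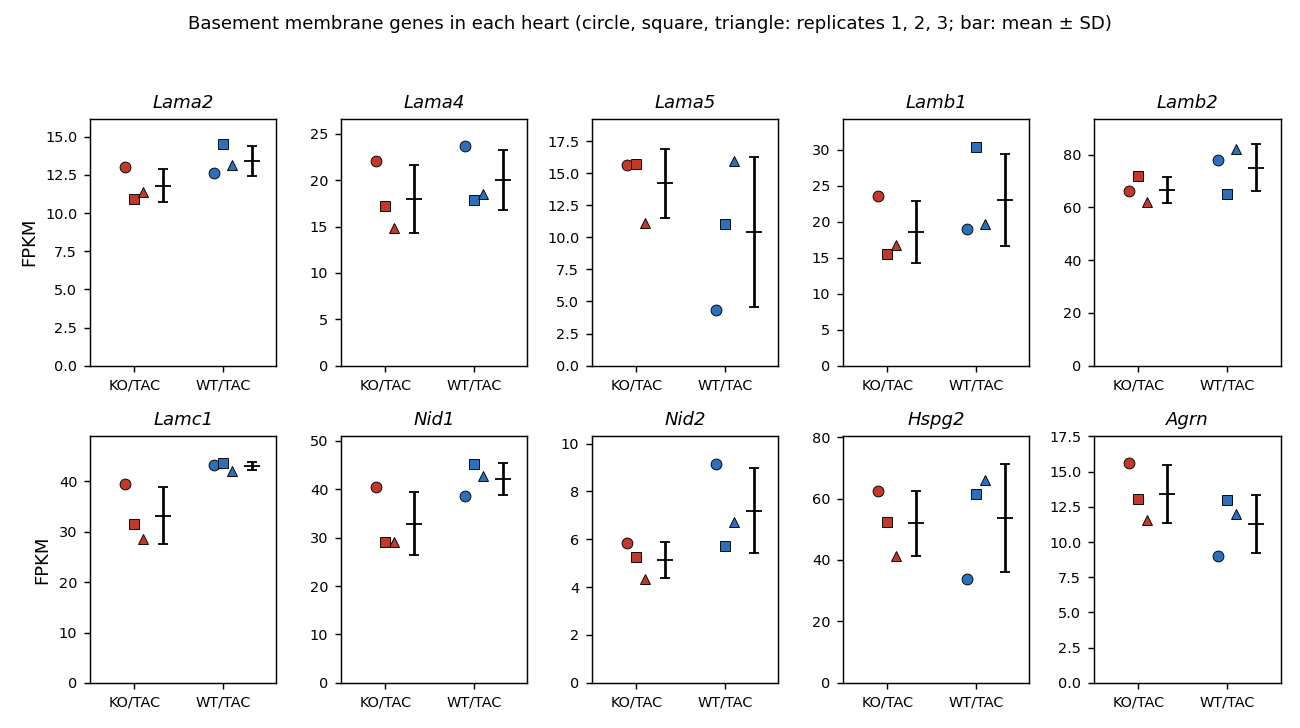
FPKM (y axis, from 0, with its own scale in each panel) of the 10 basement membrane genes in each KO/TAC heart (red, left) and each WT/TAC heart (blue, right), with circles, squares and triangles for replicates 1, 2 and 3 and bars for the mean ± SD. Lamc1 is the panel in which the groups do not overlap, 28.5 to 39.5 FPKM in KO/TAC and 42.2 to 43.6 FPKM in WT/TAC, and the lone low circle of Lama5 in WT/TAC, at 4.32 FPKM, is replicate 1.

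Laminin γ1 is the chain that almost every laminin trimer of the heart shares. Lamc1 had 39.5, 31.6 and 28.5 FPKM in KO/TAC hearts, against 43.2, 43.6 and 42.2 FPKM in WT/TAC hearts. All KO/TAC hearts were below all WT/TAC hearts, a separation in this direction that 9.79% of the tested genes had. Lamc1 was the only one of the 10 genes with it, none had all KO/TAC hearts above (8.46% of the tested genes), and groups without overlap in either direction were 1 of 10 here and 18.3% over all genes. The mean was 33.2 ± 5.67 FPKM in KO/TAC and 43.0 ± 0.77 FPKM in WT/TAC (SD, n = 3 each), a ratio of 0.772. The WT/TAC hearts were nearly alike, with a coefficient of variation of 1.79%, while the KO/TAC hearts spread over 17.1%. The estimated counting error was at most 1.88%, in KO/TAC replicate 3, the heart with the fewest fragments of Lamc1. On the log2(FPKM + 0.5) scale the fold change was -0.38 (SE 0.14, 95% interval -0.72 to -0.05, limma adjusted p = 0.396). The fold change was between -0.51 and -0.28 in all 19 alternatives, and Lamc1 stayed called in 12 of them. The call was lost when any of 4 hearts was left out, with log2 fold changes of -0.35 and -0.28 without KO/TAC replicates 2 and 3, and of -0.37 and -0.40 without WT/TAC replicates 2 and 3. Without WT/TAC replicate 1 the fold change was again -0.38 and the call held. It was also lost with the replicate number as a block, with sample weights and in the 2-sample test on log2 values. Markers of fibroblasts, a cell type that makes laminin γ1, moved the same way. By the same rule 7 of 8 fibroblast markers fell, against 6.14% of all genes, with a summed level of 358 to 431 FPKM in KO/TAC and 535 to 845 FPKM in WT/TAC and no marker at 0. Their median log2 fold change was -0.81. It was 0.13 for endothelial, 0.15 for cardiomyocyte and 0.06 for pericyte and smooth muscle markers. It was -0.21 for macrophage, -0.46 for adipocyte, -1.5 for mesothelial and -0.09 for Schwann cell markers. The part of any cell type in the Lamc1 result was not tested.

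The α chains decide which receptors a laminin binds, and none of the 3 passed the test. Lama2, the chain of the cardiomyocyte basement membrane, had 13.0, 10.9 and 11.4 FPKM in KO/TAC hearts, against 12.6, 14.5 and 13.2 FPKM in WT/TAC hearts, so KO/TAC replicate 1 lay among the WT/TAC hearts. Its log2 fold change was -0.18 (SE 0.12, 95% interval -0.47 to 0.11, limma adjusted p = 0.621). Lama4, the α chain of vessel walls and capillaries, had 22.1, 17.2 and 14.9 FPKM in KO/TAC hearts, against 23.7, 17.8 and 18.5 FPKM in WT/TAC hearts. The groups overlapped and the log2 fold change was -0.15 (SE 0.18, 95% interval -0.59 to 0.28, limma adjusted p = 0.791). It was -0.03 without WT/TAC replicate 1, the highest heart, and -0.03 or -0.30 when KO/TAC replicate 3 or KO/TAC replicate 1 was left out. Lama5, a chain of mature vessels and of epithelial layers, had the widest spread between WT/TAC hearts of the 10 genes. It had 15.7, 15.7 and 11.1 FPKM in KO/TAC hearts, against 4.32, 11.0 and 16.0 FPKM in WT/TAC hearts, and its coefficient of variation was 18.8% in KO/TAC and 56.0% in WT/TAC. The log2 fold change of 0.58 (SE 0.43, 95% interval -0.45 to 1.61, limma adjusted p = 0.662) rested on WT/TAC replicate 1, the heart with the atrial marker, and was 0.07 without it.

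The β chains complete the trimer, and neither passed the test. Lamb2, the β chain of the mature muscle and vessel basement membrane, was the most abundant of the 10 genes. It had 66.2, 71.8 and 62.0 FPKM in KO/TAC hearts, against 78.1, 65.1 and 82.1 FPKM in WT/TAC hearts, with WT/TAC replicate 2 among the KO/TAC hearts. The log2 fold change was -0.17 (SE 0.13, 95% interval -0.47 to 0.14, limma adjusted p = 0.669). Lamb1, the β chain that prevails in development, had 23.6, 15.6 and 16.7 FPKM in KO/TAC hearts, against 19.0, 30.4 and 19.7 FPKM in WT/TAC hearts. WT/TAC replicate 2 was high and KO/TAC replicate 1 lay between the WT/TAC hearts. The log2 fold change of -0.29 (SE 0.23, 95% interval -0.85 to 0.27, limma adjusted p = 0.681) was -0.08 without WT/TAC replicate 2.

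The nidogens were both lower on average without passing the test. Nid1, which bridges the laminin γ1 chain and collagen IV, had 40.5, 29.2 and 29.0 FPKM in KO/TAC hearts, against 38.6, 45.1 and 42.8 FPKM in WT/TAC hearts. KO/TAC replicate 1 was above WT/TAC replicate 1, and the other hearts separated. The ratio of means was 0.781 and the log2 fold change -0.37 (SE 0.16, 95% interval -0.75 to 0.01, limma adjusted p = 0.461). Leaving out either of those hearts brought Nid1 past the limits, at -0.52 without KO/TAC replicate 1 and at -0.43 without WT/TAC replicate 1. Nid2, the second nidogen, had the lowest level of the 10 genes, 5.83, 5.25 and 4.35 FPKM in KO/TAC hearts, against 9.14, 5.72 and 6.74 FPKM in WT/TAC hearts. The groups met only at KO/TAC replicate 1 and WT/TAC replicate 2. Its ratio of means, 0.714, was the furthest below 1 among the 10 genes, with a log2 fold change of -0.43 (SE 0.20, 95% interval -0.90 to 0.04, limma adjusted p = 0.483). Without WT/TAC replicate 2 it was -0.57 and past the limits, and without WT/TAC replicate 1, the highest heart, it was -0.26 and not past them.

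The proteoglycans did not pass the test in either direction. Hspg2 encodes perlecan, the large heparan sulfate proteoglycan of vessel and muscle basement membranes. It had 62.4, 52.5 and 41.2 FPKM in KO/TAC hearts, against 33.7, 61.5 and 66.0 FPKM in WT/TAC hearts, so that each group covered the middle of the other. The log2 fold change was -0.01 (SE 0.28, 95% interval -0.68 to 0.67, limma adjusted p = 0.994), an interval too wide to show that the groups were alike. It was -0.31 without WT/TAC replicate 1 and 0.17 without WT/TAC replicate 3, and its sign also turned with rescaling. Agrn encodes agrin, which clusters acetylcholine receptors at the neuromuscular junction and binds dystroglycan in the heart. It had 15.6, 13.0 and 11.6 FPKM in KO/TAC hearts, against 9.02, 13.0 and 12.0 FPKM in WT/TAC hearts, and the groups overlapped. Its log2 fold change was 0.24 (SE 0.18, 95% interval -0.18 to 0.66, limma adjusted p = 0.66), and 0.09 without WT/TAC replicate 1. The 2 genes with the seed letters in their 3′ UTR therefore had fold changes of opposite sign, -0.38 for Lamc1 and 0.24 for Agrn.

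**Figure D2:**
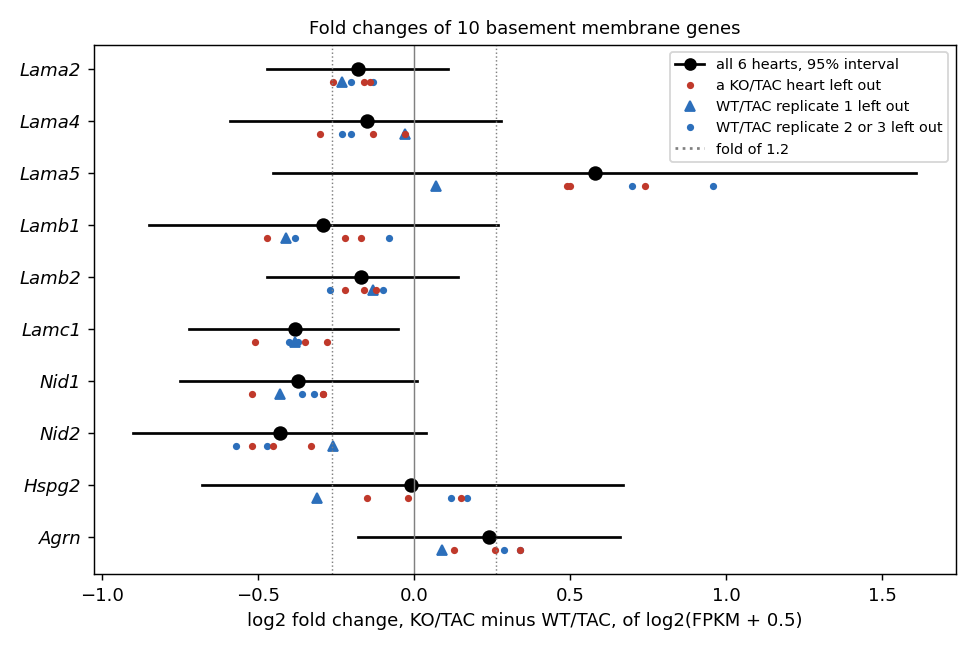
Log2 fold change of log2(FPKM + 0.5), KO/TAC minus WT/TAC (x axis), of each basement membrane gene, with black points and lines for all 6 hearts and the 95% interval, and small marks below for fits with 1 heart left out. The dotted lines mark a fold of 1.2. The interval of Lamc1, -0.72 to -0.05, is the only one of the 10 that does not reach 0, and the triangle for Lama5 without WT/TAC replicate 1 lies at 0.07, far left of its value of 0.58.

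FPKM is a measure per length, so levels can be compared between genes, but only roughly. The annotation that set the lengths is not known. Over the 6 hearts the order of mean levels was Lamb2 at 70.9 FPKM, Hspg2 at 52.9, Lamc1 at 38.1, Nid1 at 37.5, Lamb1 at 20.8, Lama4 at 19.0, Lama2 at 12.6, Agrn at 12.4, Lama5 at 12.3 and Nid2 at 6.17. Lamb2 was above Hspg2, Nid1 above Lamb1 and Lama4 above Lama2 in 6 of 6 hearts, and of these only the ranges of Lama4 and Lama2 were separate. Lamc1 and Nid1 could not be ordered, Lamc1 being higher in 2 of 6 hearts, and Lama2, Agrn and Lama5 changed places from heart to heart. The mRNA of the β chains, 78.8 to 89.8 FPKM in KO/TAC and 95.5 to 101.8 FPKM in WT/TAC, exceeded that of Lamc1 in every heart. The summed α chains stood at 37.3 to 50.7 FPKM in KO/TAC and 40.7 to 47.6 FPKM in WT/TAC.

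The mix of chains within a heart does not depend on the scaling of its library. The question here was whether the mix of mRNA differed, since the protein in the layer was not measured. For this, 7 shares or ratios were compared by an exact two-sided permutation test, for which 3 hearts against 3 allow no p below 0.1. None reached that value, and the lowest exact p was 0.2 (0.525 after Benjamini-Hochberg adjustment over the 7). Lama5 made up 30.9%, 35.9% and 29.7% of the α chain FPKM in KO/TAC hearts, against 10.6%, 25.4% and 33.5% in WT/TAC hearts, a difference of 8.96 percentage points (exact permutation p = 0.3) that was 2.67 points without WT/TAC replicate 1. The low share in WT/TAC replicate 1 was taken up by Lama4, at 58.4% there and 38.8% to 43.5% in the other 5 hearts, and the difference in the Lama4 share was -5.26 points with that heart and 0.873 without it. Lama2 held 27.0% ± 3.02 in KO/TAC and 30.7% ± 2.90 in WT/TAC (SD over the 3 hearts of each group). The ratio of Lamc1 to the summed β chains was 0.44, 0.362 and 0.362 in KO/TAC hearts, against 0.445, 0.457 and 0.414 in WT/TAC hearts. That is a difference of -0.0509 (exact permutation p = 0.2), and KO/TAC replicate 1 lay among the WT/TAC hearts. Lamb1 was 21.8% of the β chains in KO/TAC and 23.6% in WT/TAC, and Nid1 was 86.4% of the nidogens in KO/TAC and 85.3% in WT/TAC, in both cases with an exact permutation p of 0.8. These differences of -1.79 and 1.05 points were -3.80 and -1.19 points without WT/TAC replicate 1. Agrn stood to Hspg2 as 0.26 to 1 in KO/TAC and as 0.22 to 1 in WT/TAC (exact permutation p = 0.3), a difference of 0.0399 that was 0.0637 without WT/TAC replicate 1.

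**Figure D3:**
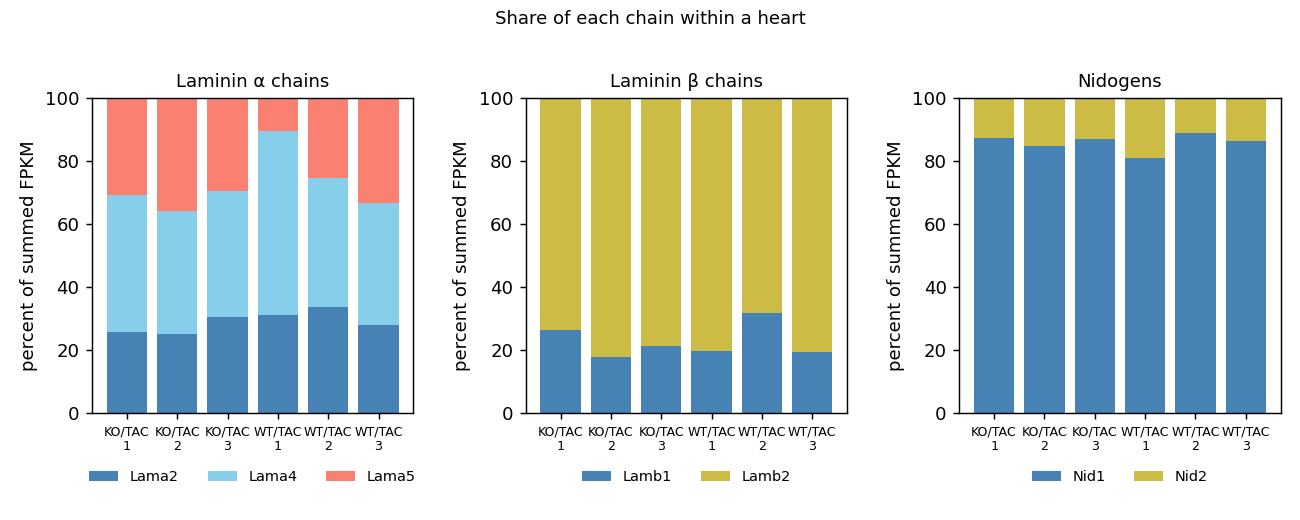
Stacked bars of the share of summed FPKM (y axis, percent) that each laminin α chain, each laminin β chain and each nidogen held in the KO/TAC hearts (left 3 bars of each panel) and the WT/TAC hearts (right 3 bars). Lama4 fills 58.4% of the α chain bar of WT/TAC replicate 1, where Lama5 has 10.6%, and in the nidogen panel Nid1 holds 80.8% to 88.7% of every bar.

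The 10 genes did not vary as 1 block across the hearts. KO/TAC replicate 1 was the highest KO/TAC heart for 8 of the 10 and KO/TAC replicate 3 the lowest for 8. The summed endothelial markers ranked KO/TAC replicate 1 first too, with 528, 423 and 467 FPKM in KO/TAC hearts, against 449, 456 and 420 FPKM in WT/TAC hearts, and none of the 10 markers was at 0. Fibroblast markers (431, 358 and 380 FPKM in KO/TAC) and macrophage markers (227, 180 and 202 FPKM) also had KO/TAC replicate 1 highest of the KO/TAC hearts. All of these lists had KO/TAC replicate 2 lowest of the KO/TAC hearts, not replicate 3. Pericyte and smooth muscle, cardiomyocyte, adipocyte, mesothelial and Schwann cell markers had another KO/TAC heart highest. The part of any cell type in the order of the hearts was not tested. KO/TAC replicate 3 was the lowest of all 6 hearts for 5 genes. WT/TAC replicate 1 was below the other 5 hearts for Lama5, Hspg2 and Agrn, at 0.311, 0.594 and 0.692 times their mean. It was above them for Lama4 and Nid2, at 1.31 and 1.64 times their mean, and within their range for the other 5 genes, Lamc1 among them. As a description over 6 hearts that share their libraries and depth, Lama2 and Nid1 (Pearson r = 0.96, Spearman 0.94), Lamc1 and Nid1 (0.94 and 0.83) and Lama2 and Lamb1 (0.93 and 0.94) varied most alike. Lama5 went with Agrn (0.85 and 0.49) and Hspg2 (0.83 and 0.71), pairs in which WT/TAC replicate 1 is lowest for both genes, and Lama4 went with Nid2 (0.85 and 0.94), for which it is highest. The lowest coefficient was that of Lama5 and Nid2 (-0.65 and -0.14).

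**Figure D4:**
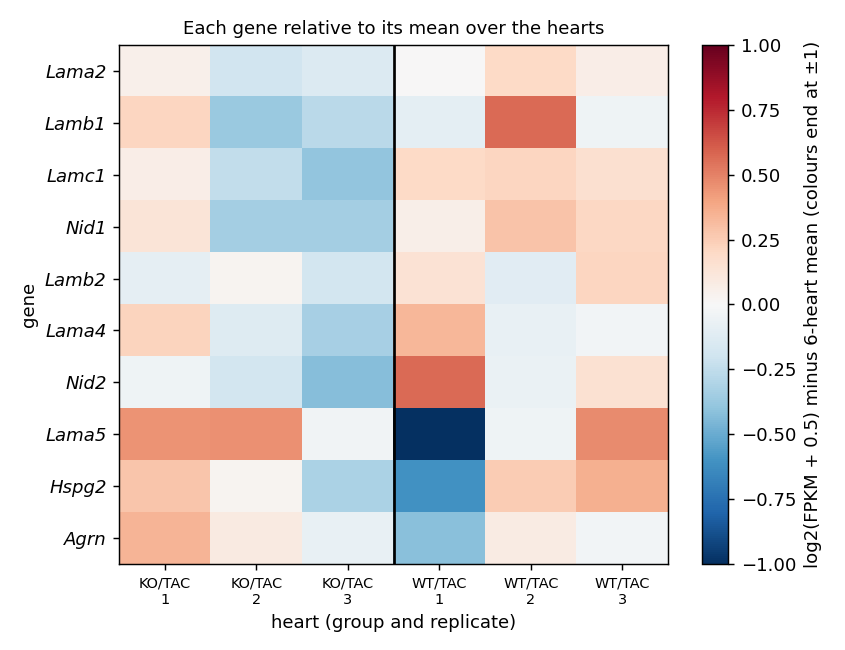
Colour map of log2(FPKM + 0.5) of each basement membrane gene (rows) minus its mean over the 6 hearts, in KO/TAC hearts (left of the line) and WT/TAC hearts (right of it), with red above and blue below the mean and colours ending at 1 log2 unit on either side. Blue fills most of the KO/TAC replicate 3 column, the lowest heart for 5 of the 10 genes, and the dark cell is Lama5 in WT/TAC replicate 1, at 4.32 FPKM.

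The genes whose pattern over the 6 hearts was most like the mean of the 10, out of 7761 others averaging 5 FPKM or more, were Sox13 (Pearson r = 0.985, Spearman 0.94), AU022252 (0.975 and 0.83), Sptan1 (0.97 and 0.94), Cdc42bpb (0.965 and 1.0) and Abi3 (0.962 and 1.0). These genes were picked by the same Pearson r that is given, out of 7761 genes and over only 6 hearts. Such high values can come from the picking alone, so no link to the 10 genes can be read from them. Sox13 encodes a SOX transcription factor, Sptan1 the non-erythroid α spectrin and Cdc42bpb a kinase that binds the GTPase Cdc42. The mean of the 10, in standard deviations per gene, was 0.47, -0.44 and -0.95 in KO/TAC hearts, against -0.04, 0.46 and 0.50 in WT/TAC hearts, so the groups overlapped at KO/TAC replicate 1.

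Promoters were matched in RefSeq (GRCm38.p6) for 7 of the 10 genes, as the 250 bases before to 50 after the start, and not for Lama4, Lamc1 and Nid2. The letters GGGCGG on either strand, the GC box known from Sp1 binding, occurred in 6 of the 7, all but Lamb2. They occurred in 38.2% of the 27025 genes with a promoter entry, a gene being counted if any of its promoters had them. The TATA box letters TATAAA and the AP-1 letters TGANTCA, also searched for on both strands, occurred in 0 of the 7, and in 15.7% and 8.97% of those 27025 genes. These 27025 include genes not tested here, so the shares are no background for genes expressed in the heart. These counts describe letters in a window of the genome and were not set against the fold changes.

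Other components of the basement membrane were counted by the same rule, and none of their genes passed an adjusted p of 0.05 (limma). Of all genes tested, 6.14% were lower by this rule and 4.94% higher, and 7.49% were lower without WT/TAC replicate 1. Among the collagens of this layer, 3 of 8 fell and 0 rose, with a median log2 fold change of -0.55. They were Col4a5 (-0.58, limma adjusted p = 0.255), Col4a4 (-0.65, limma adjusted p = 0.366) and Col15a1 (-0.75, limma adjusted p = 0.387), whereas Col4a1 and Col4a2, the chains of the common collagen IV network, were at 0.04 and 0.05 and did not pass. Col4a5 kept its call whichever heart was left out. Without WT/TAC replicate 1 the count was 1 of 8, as Col4a4 (-0.50) and Col15a1 (-0.63) lost theirs, which they also did without WT/TAC replicate 2 (-0.63 and -0.73), KO/TAC replicate 2 (-0.63 and -0.55) and KO/TAC replicate 3 (-0.54 and -0.67). Near the 6.14% share of all genes, 1 of 13 tested proteins that associate with the layer fell and 0 rose (median -0.35). It was Fbln2, which encodes fibulin-2, a partner of laminin and nidogen, at 39.4, 26.8 and 26.9 FPKM in KO/TAC hearts, against 55.4, 74.3 and 54.2 FPKM in WT/TAC hearts, with no overlap (log2 fold change -0.98, limma adjusted p = 0.245). Without WT/TAC replicate 1 that count was 4 of 12. These counts stand beside the lower fibroblast markers given with Lamc1, whose part in them was not tested.

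Enzymes that build or trim heparan sulfate, the sugar chain that perlecan and agrin carry, had 17 genes tested (median -0.14). Of these 1 was lower, near the 6.14% of all genes, and 0 were higher. The lower gene was Sulf1, an extracellular sulfatase, at 6.18, 7.23 and 5.86 FPKM in KO/TAC hearts, against 19.7, 10.8 and 10.6 FPKM in WT/TAC hearts. The groups did not overlap and the log2 fold change was -0.98 (limma adjusted p = 0.278). Without WT/TAC replicate 1 the count was 2 of 17. Ntn4, a netrin that binds the laminin γ1 chain, fell as 1 of 2 tested netrins, at 3.71, 3.52 and 3.96 FPKM in KO/TAC hearts, against 6.40, 4.17 and 5.86 FPKM in WT/TAC hearts (log2 fold change -0.48, limma adjusted p = 0.396). It was no longer called when WT/TAC replicate 1 was left out (-0.37), nor without WT/TAC replicate 3 (-0.43) or any KO/TAC heart (-0.52 to -0.44).

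On the side of the cell, 0 of 8 tested receptors of laminin and agrin passed the test (median -0.15). Dag1, the gene of dystroglycan, had 103.9, 116.3 and 102.2 FPKM in KO/TAC hearts, against 118.3, 115.3 and 131.8 FPKM in WT/TAC hearts, which overlapped (log2 fold change -0.18, limma adjusted p = 0.605). Itga3, the α3 integrin, had a log2 fold change of -0.42 (limma adjusted p = 0.617), of -0.70, past the limits, without WT/TAC replicate 2, and of -0.21 without WT/TAC replicate 1. Of 12 genes that glycosylate dystroglycan, the modification that lets it bind laminin, 0 rose (median -0.10). Near the 6.14% of all genes that were lower, 1 fell. It was Pomt2, an O-mannosyltransferase, at 4.00, 4.43 and 4.20 FPKM in KO/TAC hearts, against 5.55, 4.78 and 5.90 FPKM in WT/TAC hearts (log2 fold change -0.32, limma adjusted p = 0.426). It was no longer called when WT/TAC replicate 1 was left out (-0.30), nor without WT/TAC replicate 3 (-0.26) or any KO/TAC heart (-0.36 to -0.29).

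The cells that make these genes were followed by their markers, beside 6.14% lower and 4.94% higher of all genes tested with all 6 hearts. Without WT/TAC replicate 1, 7.49% of all genes were lower and 939 of 12430 were higher. Marker counts without that heart are to be read beside these values. Endothelial markers had 0 of 10 called, with Egfl7 at 0.26 and Tek at 0.24 (limma adjusted p = 0.467 and 0.546). Tek passed the limits without WT/TAC replicate 1 (0.31) and Egfl7 without WT/TAC replicate 2 (0.34). Pericyte and smooth muscle markers had 0 of 9 called, and 1 of 9 higher without WT/TAC replicate 1, Abcc9 (0.46). Abcc9 also passed without WT/TAC replicate 3 (1.55), and Kcnj8 without WT/TAC replicate 2 (0.72). Fibroblast markers fell, among them Col1a2 (-1.13), Mmp2 (-1.18), Pdgfra (-0.59) and Col1a1 (-0.85), none past an adjusted p of 0.05, and 7 of 8 were lower without WT/TAC replicate 1 as well. Of the cardiomyocyte markers 1 of 8, Pln, rose (0.84, limma adjusted p = 0.251), and 2 of 8 did without WT/TAC replicate 1. Summed mesothelial markers reached 89.9 FPKM in WT/TAC replicate 1 and 1.80 to 17.2 FPKM in the other hearts, and 1 of 6, Wt1, fell (-0.74, limma adjusted p = 0.255). Macrophage, adipocyte and Schwann cell markers had 0 called of 8, 5 and 4 tested. Csf1r (-0.38), Fabp4 (1.13) and Mbp (-1.62), 1 of each of these lists, passed the limits without WT/TAC replicate 2.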

How the data were processed

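Heart RNA of 3 miR-27b-null and 3 wild-type samples, taken 8 weeks after TAC, was sequenced from KAPA stranded libraries. The authors deposited FPKM values to 2 decimals, 1 file per heart, with HISAT2 2.0.5 and StringTie 1.3.3 named in the submitters' processing notes. The sources used here give neither settings nor annotation, and the notes name both hg38 and mm9, so the build behind the values is not known. FPKM keep no counts, so no count test was run. The members and lists were chosen with earlier results of these data known. Named are all members, up to 4 called genes of each other list by p or else the 2 with the smallest p, 3 chamber genes and the 5 genes most like the member mean.

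The test was run on log2(FPKM + 0.5), for genes averaging 0.5 FPKM or more, by limma 3.58.1 (lmFit, eBayes with trend) in R 4.3.3, two-sided, with Benjamini-Hochberg adjustment over all genes tested. This scale understates the change of low genes. A gene was called at an unadjusted p under 0.05 and a fold of at least 1.2. Shares were tested by exact permutation over all splits of the hearts in Python 3.11.15. The Spearman coefficients of the genes most like the member mean came from scipy 1.17.1. Intervals are 95%. The fit was tested on simulated data. No 2 libraries held the same values in more than 0.232% of genes averaging 5 FPKM or more. Alternatives were other pseudocounts, filters, scalings and variance models, sample weights, a replicate block, Myl7 as a covariate, gene-by-gene tests, log2 ratios for shares and each heart left out. 1 gene of the lists is not reported here.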

Additional observations from a re-analysis of the deposited data

How the results depend on the processing

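With 3 hearts a group, small changes cannot be told from the spread, and 1 heart can move a result. The count of basement membrane genes lower (1) was 0 with sample weights, with a replicate block and with the 2-sample test on log2 values. It was 3 of 10 with log2 Myl7 as a covariate (Lamb1, Lamc1 and Nid1), against 5.59% of all genes in that fit. With 1 heart left out it was 0 to 2, against 2.92% to 9.43% of all genes. None of these genes was higher in any of the 19 alternatives. Their median log2 fold change was -0.28 to -0.14 with 1 heart left out. All genes lower (769) were 510 with a minimum mean of 5 FPKM, 502 with the 2-sample test on FPKM and 366 to 1181 with 1 heart left out. All genes higher (618) were 355 with a replicate block and 260 to 939 with 1 heart left out. Genes past an adjusted p of 0.05 (2) were 1 with a pseudocount of 0.1, median ratios, quantile normalization or the 2-sample test on log2 values, 0 with a pseudocount of 1, no filter, a minimum mean of 5 FPKM, a replicate block, the Myl7 covariate or the 2-sample test on FPKM, and 0 to 14 with 1 heart left out. Hspg2 turned to 0.01 with median ratios and 0.02 with quantile normalization, and ranged from -0.31 to 0.17 with 1 heart left out. Lamb3 turned to 0.09 with sample weights and 0.16 with the Myl7 covariate (-0.98 to 0.45 with 1 heart left out), and Cfd to 1.17 with the covariate (-2.70 to 1.61). Differences in share ran from -8.90 to 0.873 points for Lama4, -4.04 to 2.34 for Lamb1 and -1.19 to 2.76 for Nid1 with 1 heart left out. The causes were not tested. The correlations of same-numbered deviations from the group means were -0.289, -0.565 and -0.346. With 3 hearts a group the deviations sum to 0, so these values cannot show whether replicate numbers pair the hearts. The block left 0 of the 10 genes called.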

Other observations

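Lamb3, the β3 chain of an epithelial laminin, was not among the 10 genes and stood out in 1 library. It had 3.08, 4.78 and 3.84 FPKM in KO/TAC hearts, against 20.3, 2.36 and 3.03 FPKM in WT/TAC hearts, with the high value in WT/TAC replicate 1, the heart with the highest Myl7 and the highest mesothelial markers. Its log2 fold change was -0.45 (limma adjusted p = 0.845).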
